A study of Mus musculus with 495 samples.

Results

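The cells described here held an intermediate level of the Neurog3 transcript. They were selected on Neurog3 alone: 20 or more and fewer than 1000 counts per 1000000 counts of the cell (CPM) on plates EA01, EA02, EA03, EA05, EA06 and EA07. There were 61 such cells, called low cells below, among 429 cells on these 6 plates and 495 cells in the whole series. They made up 14.2% of the 429 cells and were set beside the cells at 1000 CPM or more (high cells, 35.2%) and the 217 cells below 20 CPM (negative cells, 50.6%) of the same plates.

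The study sequenced single cells of the mouse embryonic pancreas with Smart-seq2, which reads whole transcripts of cells sorted into wells and carries no molecular identifiers. At embryonic day E15.5, plates EA01 and EA03 had the code Neurog3 and plates EA02 and EA05 the code endocrine, all of the genotype Neurog3-eGFP, a knock-in of a green fluorescent protein at the Neurog3 locus. At E17.5, plates EA06 and EA07 had the code Neurog3-cre and the genotype Neurog3-Cre, Rosa-mTmG, in which cells that have had Cre, and their descendants, switch from a membrane tomato to a membrane GFP reporter. Day, genotype and code go together at E17.5 and cannot be told apart. The labels name no animal or litter, so each group is 1 sample and plates are not known to be separate animals. Differences are therefore described, never tested. Intervals are exact 95% Clopper-Pearson intervals and cover counting error only.

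Neurog3 is a basic helix-loop-helix transcription factor that commits progenitors of the pancreatic epithelium to the endocrine lineage. It is made in a short pulse and is nearly absent from hormone-producing islet cells. Its known targets and successors include the factors Neurod1, Pax4, Insm1 and Nkx2-2, and Fev, an ETS factor also used by serotonin neurons, marks endocrine precursors that come after the Neurog3 peak and before hormones. Runx1t1 and Cbfa2t3 encode corepressors of the ETO family. A low Neurog3 level can belong to a cell before its peak, after it, or outside it, and the level alone does not tell these apart.

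In the GRCm38 build with GENCODE M21 genes, Neurog3 spans chr10:62133090-62134763, Pax4 chr6:28442334-28449353, Fev chr1:74881509-74885419, Runx1t1 chr4:13743436-13893649 and Neurod1 chr2:79452521-79456751. Neurog3 in the low cells ranged from 20.3 to 937 CPM with a median of 239 CPM, against a median of 4115 CPM in high cells. The limits do not fall in an empty range. The cell nearest below the lower limit had 17.1 CPM and the nearest above had 20.3 CPM, and the upper limit lay between cells at 937 and 1045 CPM. The fewest Neurog3 counts in a low cell were 12. Of the negative cells, 200 had 0 Neurog3 counts and 17 had some. On the E15.5 plate with the code duct, not used here, 1 of 66 cells had Neurog3 counts, at 6.90 CPM.

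**Figure D1:**
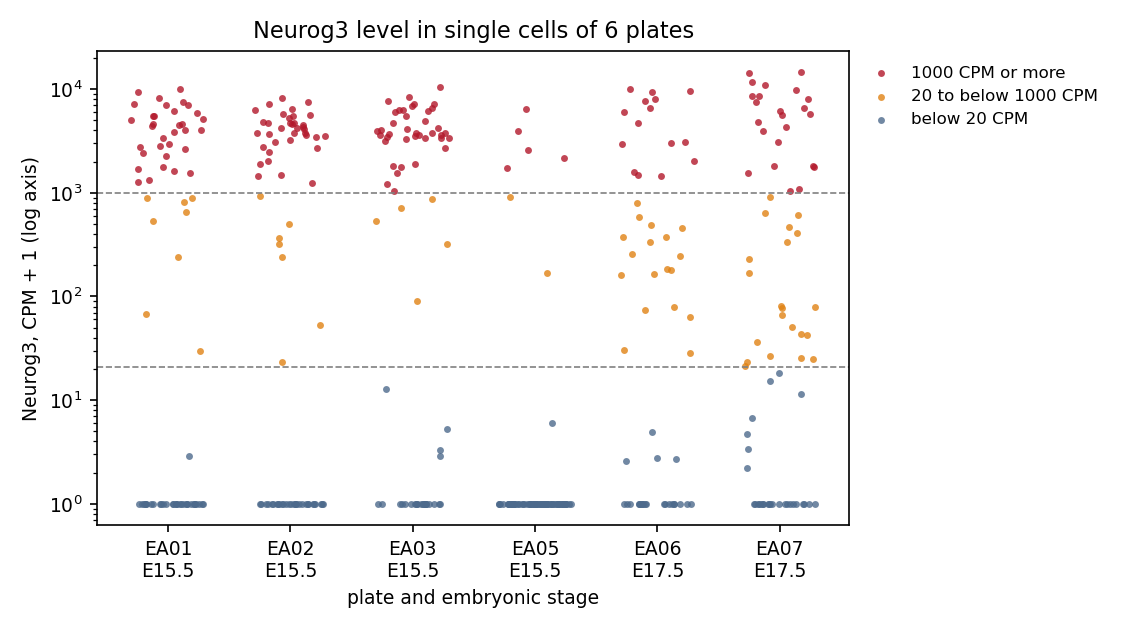
Neurog3 in each cell as CPM + 1 on a log axis, by plate and embryonic stage, coloured by class, with dashed lines at the 2 limits. The 61 low cells lie between the limits without filling the range on every plate. EA05 holds 2 of them, and EA06 and EA07 hold 39.

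Low cells were a larger share of the E17.5 plates than of the E15.5 plates. They made up 22 of 300 cells at E15.5 (7.33%, interval 4.65 to 10.9) and 39 at E17.5 (30.2% of the cells there, 22.5 to 38.9). Per plate there were 8 on EA01, 7 on EA02, 5 on EA03, 2 on EA05, 18 on EA06 and 21 on EA07. The E17.5 low cells also lay lower in the Neurog3 range, with a median of 76.4 CPM on EA07 and 213 CPM on EA06. On the E15.5 plates the medians were 592 CPM on EA01, 322 CPM on EA02, 537 CPM on EA03 and 535 CPM on EA05. None of the 15 cells in well rows D and H of EA01 to EA03 was low or high, while those rows held 6 low cells among 27 on EA06 and EA07.

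Low cells held 369134 to 1130000 counts each (median 621039) and a median of 2815 genes, between 2418 in high and 2853 in negative cells. After each cell was thinned to 200000 counts the medians were 2620, 2314 and 2695. Plate EA07 stood apart, with a median of 4057 genes per low cell (3785 thinned) against 2445 on EA06. With so few cells on a plate many genes had no reads at all there: 35.7% of the measured genes were at 0 in the 5 low cells of EA03 and 2.09% in the 21 of EA07. The ribosomal gene Rn45s took plate medians of 20.4% to 24.1% of the counts of low cells on EA01 to EA03 and of 8.41% to 12.4% on the other 3 plates. The part of these differences in the ratios below was not tested.

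A second readout, not used to choose the cells, was the Cre transcript of the genotype Neurog3-Cre at E17.5. Cre reached 20 CPM in all 38 high cells, in 23 of 39 low cells (58.97%, 42.1 to 74.4) and in 7 of 52 negative cells (13.5%, 5.59 to 25.8). The summed Cre_transgene level was 1533, 133.1 and 18.9 CPM in the same order, so low cells stood between the other classes on this readout. Gfp_transgene reads were in all 39 low cells at E17.5, as in all 38 high and 52 negative cells of those plates. At E15.5 Gfp_transgene reached 20 CPM in 1 of 22 low cells (4.55%), 28.3% of high cells and 7.88% of negative cells, and Cre_transgene was at 0 in all of them.

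Defining markers of other pancreatic cell types were rare in the low cells. All 4 mesothelial genes listed, 7 of 8 endothelial genes and 5 of 6 immune genes were at 0 in every low cell. At least 3 acinar genes reached 20 CPM in 1 low cell, and at least 3 mesenchymal genes in 2. The summed level of the 15 acinar genes ran from 0 to 1166 CPM in low cells, from 0 to 2562 CPM in high cells and from 0 to 48901 CPM in negative cells. That of the 11 mesenchymal genes ran from 0 to 2253, from 0 to 3623 and from 0 to 15191 CPM. Genes of the duct and bipotent progenitor list, which includes several keratins, were common in every class. At least 3 of the 16 reached 20 CPM in 57 of 61 low cells, all but 6 high cells and 170 of 217 negative cells. Members differed widely. At 10 CPM or more, Krt7 was in 86.9% of low cells, Sox9 in 54.1%, Spp1 in 19.7%, Krt19 in 8.20% and Hes1 in 6.56%.

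Ratios between classes were taken within a plate from summed counts, as log2 of CPM + 5 in low over CPM + 5 in the other class, and averaged over the 5 plates with at least 5 cells of both classes. EA05 was left out because it has 2 low cells, so ratios rest on 59 low cells. Levels with them are means of the plates' CPM. Genes reaching 20 CPM in one class or the other count as measured, and a gene was called where the mean ratio passed 2-fold and every plate lay on the same side. The median of all measured genes was -0.16 against high cells and -0.23 against negative cells, -0.28 and -0.36 with TMM scaling factors, and single ratios read relative to these.

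Of the named markers, Fev was higher in low cells than in high cells, and Pax4, Runx1t1 and Neurod1 were not called. Fev was 499.96, 319, 221, 328 and 586 CPM in the low cells of EA01, EA02, EA03, EA06 and EA07, and 57.99, 219, 78.8, 303 and 212 CPM in the high cells of the same plates. Every plate was higher in low cells, although the plate levels of both classes overlap. The mean log2 ratio was 1.31 (range over plates 0.11 to 3.0), and it was 0.88 without EA01.

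Pax4, a factor of the beta and delta branches, was 275, 383, 1463, 150.6 and 262 CPM in low cells and 1460, 1250, 1390, 755 and 808 CPM in high cells. It was lower in 4 of 5 plates and level in EA03, with a mean log2 ratio of -1.58 (-2.39 to 0.07). Against negative cells the Pax4 ratio was 1.12 (-0.64 to 3.07), with EA01 on the other side, and 0.64 without EA03. It was 0.21 without EA03 and the hormone cells, defined below, together.

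Runx1t1 was 650.5, 213, 800.1, 992 and 416 CPM in low cells and 564, 206, 221, 1150 and 676 CPM in high cells. The plates of both classes overlap, and the E15.5 plates were on the higher side in low cells and the E17.5 plates on the lower side. Neurod1, which carries the endocrine programme on after Neurog3, was 704, 774, 1234, 399 and 633 CPM in low cells and 767, 488, 618, 943 and 764 CPM in high cells, a mean log2 ratio of 0.01 (-1.23 to 0.99). Against negative cells, Fev was at 0.22 (-0.14 to 1.00), Runx1t1 at 0.71 (-0.38 to 1.64) and Neurod1 at 0.41 (0.19 to 0.90). None of these was called, and Neurod1 was higher in low cells on every plate.

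Counted by cell, 35 of 61 low cells had Fev at 20 CPM or more (57.4%, 44.1 to 69.96), against 20 high cells (13.2%, 8.28 to 19.7) and 52.5% of negative cells (interval 45.7 to 59.3). Pax4 reached it in 29 low cells (47.5%, 34.6 to 60.7), in 74.8% of high and in 22.1% of negative cells. For Pax4 the low cells thus stood between the other classes, and for Fev beside the negative cells. Runx1t1 was found in 49 low cells (80.3%, 68.2 to 89.4), in 55.6% of high cells and in 64.5% of negative cells. Neurod1 was found in 54 low cells (88.5%, 77.8 to 95.3), in 72.2% of high and 87.1% of negative cells. In low cells 19 had both Fev and Pax4, 16 had Fev only, 10 Pax4 only and 16 neither. Runx1t1 accompanied Fev in 29 of the 35 low cells with Fev.

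Fev and the progenitor genes Cbfa2t3 and Btbd17 lay at different positions on the Neurog3 scale when the cells of all plates were pooled. Cells were split at 100 and 300 CPM inside the range, giving 23, 11 and 27 low cells, and high cells at 3000 CPM, giving 41 below it and the rest above. The median of Fev was 130.5, 155.1 and 40.2 CPM in the 3 low steps from the lowest Neurog3 up, 0 in both high steps and 30.4 CPM in negative cells. Chgb, a granin of the secretory granule, had medians of 1151, 292 and 83.4 CPM in the low steps and 0 in both high steps. Cbfa2t3 went the other way, with medians of 0, 0 and 9.74 CPM in the low steps and 371 and 420 CPM in the high steps. Btbd17, a known gene of the Neurog3 programme, had a median of 0 in each low step and of 237 and 332 CPM in the high steps. Pax4 rested between, at 16.6, 0 and 59.5 CPM in the low steps and 369 and 1093 CPM in the high steps. The low steps hold few cells, and 13 of the 23 in the lowest came from EA07 alone. Single plates did not all follow the pooled order of Fev. The Fev medians of the 3 low steps were 109.8, 155.1 and 994 CPM on EA01, with 2, 1 and 5 cells. On EA07 they were 297, 527 and 403 CPM, with 13, 2 and 6 cells. On EA06 they were 0, 35.1 and 0 CPM, with 5, 6 and 7 cells. In the high step below 3000 CPM the Fev median was 315.6 CPM on EA07, with 6 cells, and 7.38 CPM on EA02, with 8 cells. It was 0 in that step on EA01, EA03, EA05 and EA06. In the high step above it the median was 226 CPM on EA05, with 2 cells, and 0 on the other plates.

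**Figure D2:**
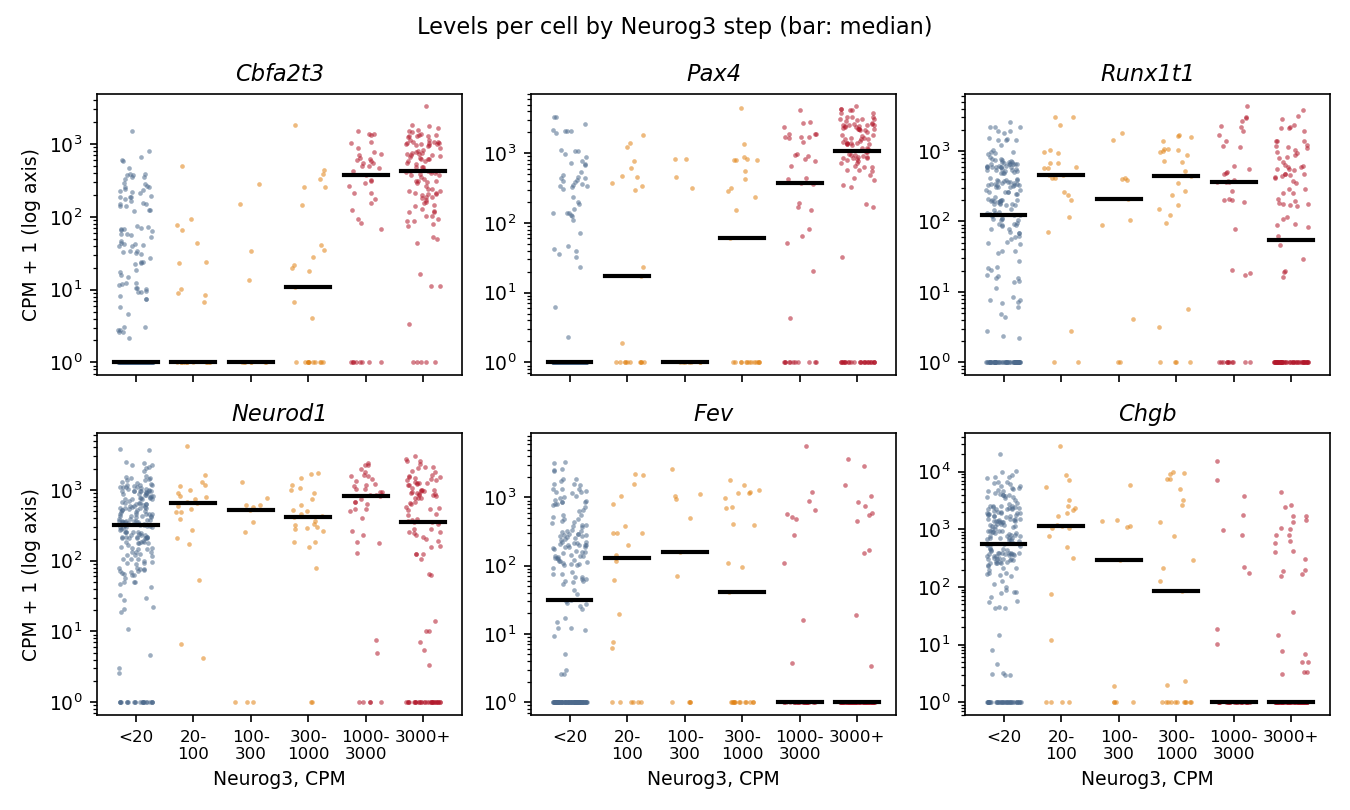
CPM + 1 on log axes for Cbfa2t3, Pax4, Runx1t1, Neurod1, Fev and Chgb in single cells, split by Neurog3 CPM, with points for cells and a bar at the median. In the 3 middle steps, which are the low cells, the Cbfa2t3 median is 9.74 CPM or less, while that of Fev is 40.2 to 155.1 CPM.

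Against high cells, the low cells were lower in genes of the Neurog3 progenitor programme and higher in genes of the secretory granule. Over all 7750 measured genes, 425 were called lower (5.48%) and 177 higher (2.28%). With any 1 plate left out, so that 4 plates had to share a side, 6.61% to 9.64% were called lower and 3.35% to 5.17% higher. Of 23 progenitor genes listed, 21 were measured, 10 were called lower, none higher and 11 were not called, with a list median of -1.50. Those called were Hes6 and Mfng of the Notch pathway, Btbd17, Gadd45a, Sox4, Cbfa2t3, Cbfa2t2, Ppp1r14a, Cer1 and Grasp. These lists were drawn up with results of this series known, so their direction is a description.

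Gadd45a, a stress-inducible gene of growth arrest and DNA demethylation, had the lowest ratio to high cells among the genes named. It was 0, 58.9, 26.5, 16.2 and 18.04 CPM in low cells of the 5 plates in the same order, and 215, 528, 419, 294 and 448 CPM in high cells. Every plate level of low cells lay below every plate level of high cells, and the mean log2 ratio was -4.08 (-5.46 to -3.06). It reached 20 CPM in 8 of 61 low cells (13.1%, 5.84 to 24.2) and in 69.5% of high cells (61.5 to 76.8). In negative cells it was found in 25 of 217 (11.5%, 7.60 to 16.5), close to the low cells, and the Gadd45a ratio of low to negative was -0.43.

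Cbfa2t3 showed the same split, at 32.5, 330, 84.7, 47.9 and 35.9 CPM in low cells and 492.7, 690, 684, 647 and 200 CPM in high cells. Low was below high on every plate (mean log2 ratio -2.73, range -3.73 to -1.05), with the plates of the classes overlapping only through EA02 low and EA07 high. Btbd17 was at -2.81 (-3.92 to -1.53), and Hes6, an inhibitor of Hes1 action, at -1.90 (-3.14 to -0.74). Mfng, a glycosyltransferase that modifies Notch receptors, was at -2.45 (-6.07 to -0.60) and at -1.54 without EA01. The members nearest to level were Plcg1 at -0.13, Cdkn1a at -0.55 and Insm1 at -0.68, none of them called.

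The other genes with the largest ratios towards high cells were Epb4.2 (-3.96), Slco4a1 (-3.57), Megf11 (-3.51), Plk3 (-3.40), Tgm7 (-3.15), Acadsb (-3.11), Mmd2 (-2.97), Trp53i11 (-2.89) and Arvcf (-2.85). Neurog3 itself, at -3.79, is among the called genes by the choice of the cells. Megf11, Epb4.2 and Slco4a1 were at 10 CPM or more in 3.28% of low cells each, against 26.5%, 26.5% and 28.5% of high cells.

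The gene with the largest called ratio of low to high cells was Iapp, followed by Glb1l2 (3.92), a beta-galactosidase-like gene. Iapp, which encodes the beta cell peptide amylin, was 940, 964, 397, 1997 and 2747 CPM in low cells and 85.9, 3.58, 3.49, 41.99 and 13.7 CPM in high cells. All plates of the low class lay above all plates of the high class, with a mean log2 ratio of 5.67 (3.38 to 7.20), and of 3.42 when cells with a hormone were left out of both classes. That alternative keeps 4 low cells on EA03 and so leaves that plate out as well, here and wherever hormone cells are left out below. Pcsk2, a convertase that cuts prohormones, was 211, 232, 717, 363 and 953 CPM in low and 54.2, 21.6, 43.7, 0.821 and 216 CPM in high cells, at 3.40 (1.87 to 5.98). Low cells were above high cells on every plate, and the class ranges overlap only between EA01 low and EA07 high. Rbp4, the retinol carrier, was at 3.02, Tmem27 (collectrin) at 3.20 and Pam, which amidates peptide hormones, at 2.56. The others named by size were Fxyd6 (3.08), Ocrl (3.05), Acap2 (2.75), Cnih2 (2.64), Gpc4 (2.50) and Tagln2 (2.48).

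**Figure D3:**
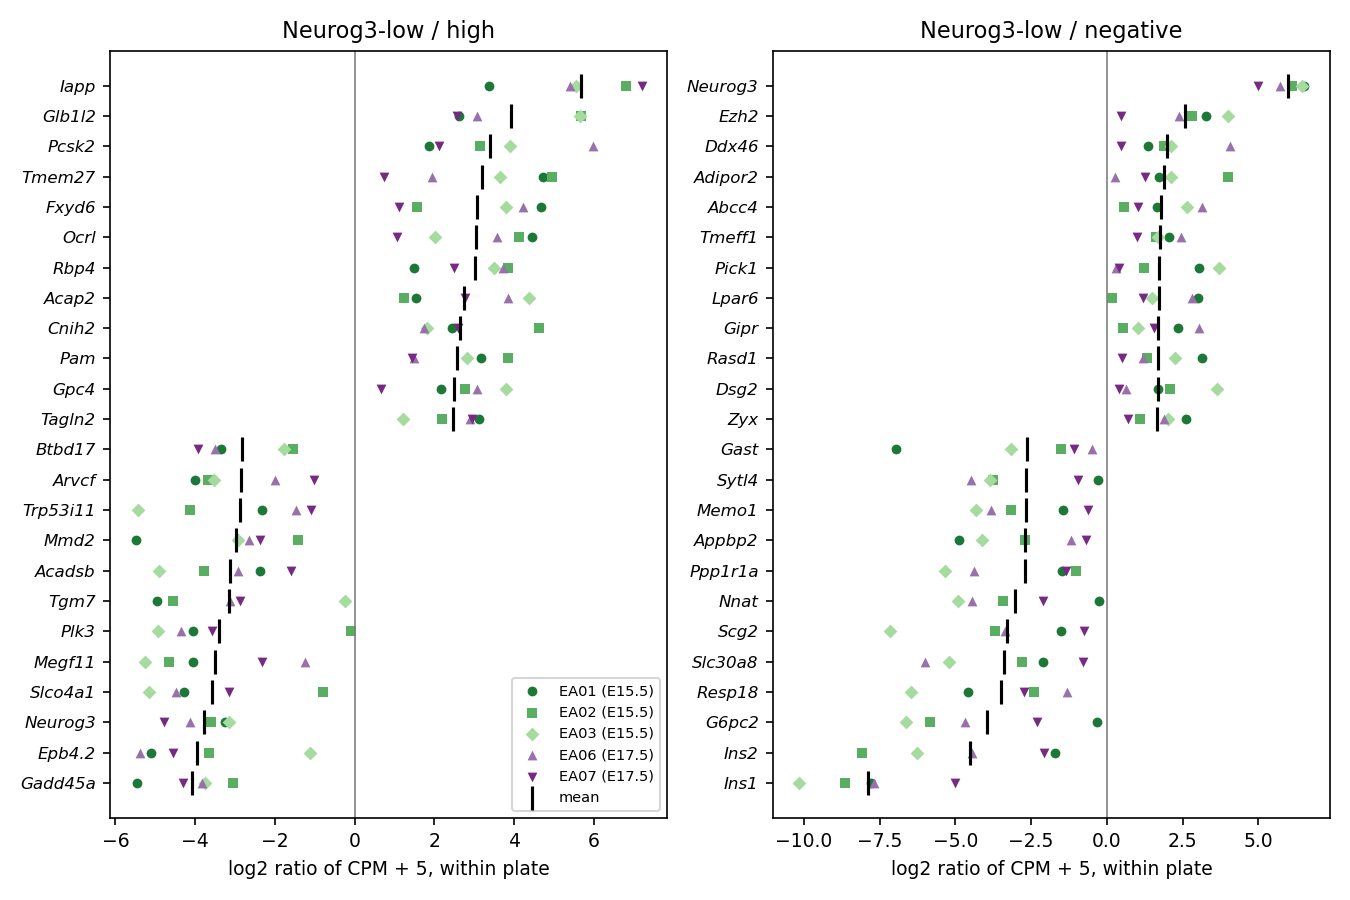
Log2 ratios of CPM + 5 within each of 5 plates for the genes with the largest called ratios, low over high on the left and low over negative on the right, with plates as symbols and their mean as a bar. Plates of a gene share a side by the rule of naming, but spread by several log2 units, as for Iapp from 3.38 to 7.20.

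Beside the 2.28% of all genes called higher and 5.48% called lower than in high cells, granule and exocytosis genes stood as follows. Of 25 measured, 8 were called higher than in high cells and none lower, with a list median of 1.65. They were Scg3, Scg5, Pcsk2, Pcsk1n, Cpe, Pam, Scgn and Ptprn2. Scgn, a calcium sensor of islet cells, was at 1249 CPM in low and 317 CPM in high cells (2.39, 1.02 to 3.82), and Cpe, which trims prohormones, at 1890 and 583 CPM (2.06). Chgb was at 1.71 but not called, since EA03 was on the other side. Against negative cells, where 4.9% of all genes were called lower and 0.948% higher, the same list had 6 of 26 called lower and none higher. Its median was -0.86, and those called were Scg2, Pcsk1n, Resp18, Rab3d, Slc30a8 and Sytl4. Scgn at -0.21, Cpe at -0.44 and Chga at -0.32 were not called there.

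Of 22 endocrine transcription factors measured against high cells, 3 were called higher and 1 lower, beside 2.28% and 5.48% of all measured genes. The 1 called lower is near the share over all genes. Pax6 was at 420 CPM in low and 168 CPM in high cells (log2 ratio 1.49, 0.68 to 1.99), Isl1 at 1225 and 685 CPM (1.40) and Mlxipl at 268 and 118.2 CPM (1.34). Myt1, a zinc finger factor that acts with Neurog3, was the one called lower, at 57.4 and 217 CPM (-1.90, -2.79 to -0.58). Nkx2-2, Insm1 and Rfx6 were not called, at -0.78, -0.68 and -0.14. Against negative cells none of 21 was called in either direction, where 0.948% of all genes were called higher and 4.9% lower. Pax6 (-0.02), Isl1 (-0.17) and Mlxipl (-0.32) were close to 0 there. Pax6 reached 20 CPM in 49 low cells (80.3%), 24.5% of high and 87.6% of negative cells.

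None of 11 measured genes listed around Fev in endocrine precursors was called against negative cells, where 0.948% of all genes were called higher and 4.9% lower. Against high cells, where those shares were 2.28% and 5.48%, 3 of 11 were called higher and none lower. Besides Fev these were Gch1, which makes the cofactor of amine synthesis, and Ddc, which makes the amines. Gch1 was 386, 678, 226, 1285 and 908 CPM in low cells and 56.7, 53.1, 102.9, 255 and 438 CPM in high cells. Low was above high on each plate, with a mean log2 ratio of 2.13 (1.04 to 3.56), and Gch1 was level with negative cells at -0.01. Ddc was at 191 CPM in low, 85.4 CPM in high and 96.96 CPM in negative cells, with ratios of 1.41 and 0.90. Ddc was above the negative class on every plate without reaching 2-fold. Tph1, the tryptophan hydroxylase that starts serotonin synthesis, and Lmx1b reached 20 CPM in no low cell, where 0 of 61 cells allows a share of up to 5.87% by the exact interval.

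**Figure D4:**
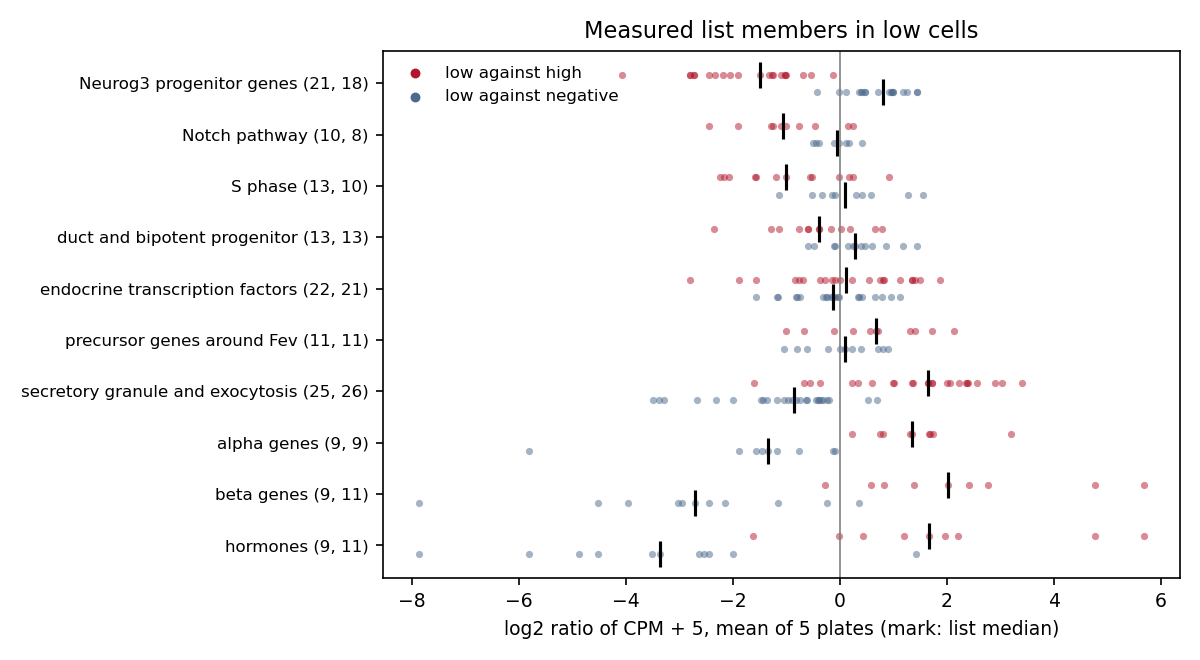
Mean log2 ratio over 5 plates for each measured member of 10 gene lists, low over high in red and low over negative in blue, with the list median as a bar and the 2 numbers of measured members after each name. The progenitor list lies below 0 against high cells, with a median of -1.50, and the hormone list lies furthest below 0 against negative cells, at -3.37.

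Against negative cells, the low cells were lower in insulin and other beta cell genes. Of 7803 measured genes 382 were called lower (4.9%) and 74 higher (0.948%), and with any 1 plate left out 5.69% to 9.01% and 1.76% to 2.11%. Ins1 was 11.6, 8.88, 0, 6.99 and 62.6 CPM in low cells and 3671, 5565, 5759, 2477 and 2199.6 CPM in negative cells. The classes were far apart on every plate, at a mean log2 ratio of -7.87 (-10.17 to -5.03). Ins2 was 2074, 28.4, 131.1, 209 and 1167 CPM in low and 6823, 9023, 10527, 4715 and 4935 CPM in negative cells, at -4.52 (-8.08 to -1.72). Here too no low plate reached a negative one. Of 11 measured beta cell genes, 8 were called lower and none higher, with a median of -2.72, among them the phosphatase subunit G6pc2 (-3.96), the glucose transporter Slc2a2, Nnat (-3.03) and Ppp1r1a (-2.72). When cells with a hormone were left out of both classes the ratio of Ins1 was -1.23, of Ins2 -0.06, of G6pc2 -0.74 and of Ppp1r1a 0.33. With EA03 alone left out they were -7.29, -4.08, -3.29 and -2.06.

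Hormone genes are set beside the shares of all genes called, 4.9% lower and 0.948% higher than negative cells and 5.48% and 2.28% against high cells. Of 11 hormone genes measured against negative cells, 5 were called lower (Ins1, Ins2, Iapp, Pyy and Gast) and none higher, and the list median was -3.37. Against high cells 3 of 9 were called higher (Ins2, Iapp and Pyy) and Cck lower. Ins2, Iapp and Pyy therefore stood between the classes. The Ins2 ratio to high cells was 4.77, and 1.47 without hormone cells. Pyy, a gut and islet peptide, was at 2214 CPM in low, 619 CPM in high and 6265 CPM in negative cells. Cck was at 266 CPM in low, 675 CPM in high and 118.3 CPM in negative cells, with ratios of -1.62 and 1.41, only the first of them called. Over all genes, 5 were called higher than in high cells and lower than in negative cells, and 2 were called the reverse way.

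The genes higher in low than in negative cells were led, apart from Neurog3, by Ezh2, the methyltransferase of the Polycomb complex. Ezh2 was 133.6, 201, 271, 26.5 and 54.1 CPM in low and 9.53, 24.7, 12.3, 1.07 and 37.5 CPM in negative cells. Low was above negative on every plate, at a mean log2 ratio of 2.58 (0.48 to 4.0), while Ezh2 was not called against high cells (0.67). It reached 20 CPM in 16 low cells (26.2%, 15.8 to 39.1), 25.2% of high cells and 7.37% of negative cells. The others were Ddx46 (1.98), Adipor2 (1.87), Abcc4 (1.79), Tmeff1 (1.76), Pick1 (1.73), Lpar6 (1.73), Gipr (1.70), Rasd1 (1.68), Dsg2 (1.68) and Zyx (1.65). Of 18 progenitor genes measured here, Plcg1 alone was called higher (1.44, and 0.94 without EA06) and none lower, with a list median of 0.81. Ccnd2, a D-type cyclin, was called lower in both comparisons, at 17.9 CPM in low, 47.9 CPM in high and 124.6 CPM in negative cells.

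Genes over 2-fold higher in low cells than in both other classes, with all plates on that side, were few by this rule. Of 7301 genes measured in both comparisons, 16 were called higher against both classes (0.219%, or 0.4996% to 0.642% with any 1 plate left out), and 64 were called lower against both. The leading one was Gipr, the receptor of the gut hormone GIP on chromosome 7. It was 259, 68.4, 141.3, 133.7 and 199 CPM in low cells, 49.3, 25.2, 25.7, 30.4 and 85.6 CPM in high cells and 46.7, 45.9, 66.8, 11.9 and 64.3 CPM in negative cells. Low was highest on each plate, and only EA02 low lay within the range of the high plates. The Gipr ratios were 1.79 (1.17 to 2.28) and 1.70 (0.53 to 3.04). It reached 20 CPM in 38 low cells (62.3%, 48.96 to 74.4), 40 high cells (26.5%, 19.6 to 34.3) and 77 negative cells (35.5%, 29.1 to 42.2).

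Rasd1, a Ras-related protein induced by dexamethasone, was 269, 91.5, 145.2, 187 and 249 CPM in low, 1.19, 40.03, 7.58, 170 and 71.8 CPM in high and 25.9, 33.5, 26.4, 78.5 and 176 CPM in negative cells. It was highest in low cells on each plate, though by 0.13 on EA06 against high cells. It reached 20 CPM in 27 low cells (44.3%, 31.5 to 57.6), 11.9% of high and 15.7% of negative cells. The other named genes with this pattern were Brox, Zfp259, Acap2, Rasa1, Atg10, Strn4, Ube2k, Aimp2 and Dot1l, the last a histone H3 methyltransferase. Of the 11, 4 stayed over 2-fold in both comparisons whichever plate was left out: Gipr, Rasd1, Acap2 and Rasa1. Ratios below 2-fold came for Zfp259 without EA02 (0.95 and 0.87), Brox without EA06 (0.98), Atg10 (0.90) and Strn4 (0.88) without EA03, Ube2k (0.96) without EA01, Aimp2 without EA01 (0.94) or EA06 (0.90) and Dot1l without EA02 (0.97) or EA03 (0.78).

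The low cells were a mixture by hormone and Fev state. A cell was given the state hormone at 1000 CPM or more of Ins1, Ins2, Gcg, Sst, Ghrl or Ppy, and otherwise Fev at 20 CPM or more of Fev. Other peptide genes such as Pyy and Iapp were not counted, so cells without a hormone may hold them. Pyy was at 10 CPM or more in 55.7% of all low cells and Iapp in 36.1%. Of 61 low cells, 29 had Fev without a hormone (47.5%, 34.6 to 60.7), 18 had a hormone (29.5%, 18.5 to 42.6) and 14 had neither (22.95%, 13.2 to 35.5). Fev without hormone was the commonest state in low cells at this limit, but with a hormone called from 100 CPM it made 37.7% and the hormone state 42.6%, and on EA06 the hormone state was the commonest. In high cells the shares were 11.9%, 5.30% and 82.8% in the same order, and in negative cells 29.5%, 58.99% and 11.5%. The median Neurog3 of low cells was 239 CPM with Fev, 112.9 CPM with a hormone and 330.2 CPM with neither, and the ranges overlap nearly in full.

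The mixture differed between days and plates. At E15.5, 11 of 22 low cells had Fev without a hormone, 3 a hormone and 8 neither. At E17.5, 18 of 39 had Fev, 15 a hormone and 6 neither. Low cells with a hormone were 10 of 18 on EA06 and 5 of 21 on EA07, and 1 each on EA01, EA02 and EA03. Ghrl, ghrelin of the epsilon cells, was the hormone in 9 low cells and Sst in 4, all at E17.5. Ins2 was at 1000 CPM or more in 3 low cells, Ppy in 2, Gcg in 1 and Ins1 in none, and 1 cell had more than 1 hormone. The Gcg cell, on EA02, held 70405 CPM. Doublets were not called, and their part in cells with Neurog3 and a hormone was not tested.

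**Figure D5:**
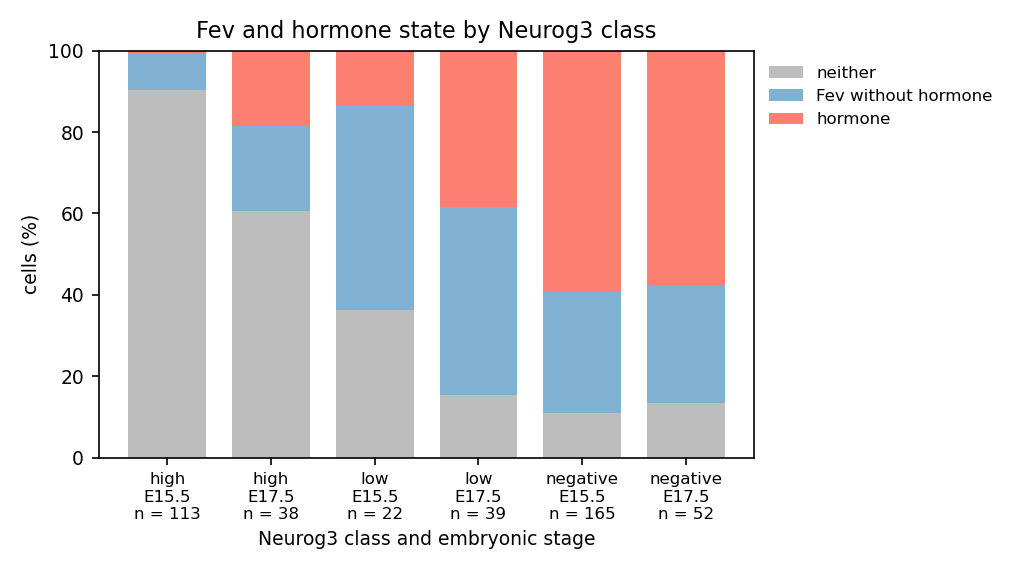
Share of cells (%) with a hormone, with Fev without hormone and with neither, for high, low and negative cells at each embryonic stage, with the number of cells under each bar. In low cells Fev without hormone makes 50% at E15.5 and 46.2% at E17.5, more than in the other classes at either stage.

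The states of low cells differed in genes not used to define them. In the 29 low cells with Fev, Chgb was at 4324 CPM in sum and found in 25, against 994 CPM and 3 of 14 cells with neither, and 649 CPM and 10 of 18 cells with a hormone. Of these states, EA07 held 13 of the 29 Fev cells and EA06 10 of the 18 hormone cells, and Chgb over all low cells was 4423 CPM on EA07 and 765 CPM on EA06. The part of the plate was not tested. Chga went the same way, at 4275, 1126 and 1391 CPM. Gipr was found in 23 of 29 cells with Fev (79.3%, 60.3 to 92.01), 7 of 14 with neither and 8 of 18 with a hormone, and Rasd1 in 19, 5 and 3. The Gipr and Rasd1 cells were thus most frequent in the Fev state. Ddc was found in 16, 3 and 5 cells in that order, and Gch1 in 24, 6 and 17.

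Hes6, Gadd45a and Ezh2 were each found in the largest share of the low cells with neither. Hes6 was found in 10 of 14 (71.4%, 41.9 to 91.6) at 457 CPM, against 12 of 29 with Fev at 220 CPM and 7 of 18 with a hormone at 100.5 CPM. Gadd45a was found in 5 of 14, 2 of 29 and 1 of 18, and Ezh2 in 7, 7 and 2. Sox9, a factor of the bipotent progenitors, was at 189, 50.6 and 103.3 CPM and found in 8, 13 and 8 cells. Isl1, in contrast, was found in 17 of 18 low cells with a hormone (94.4%, 72.7 to 99.9), 11 of 29 with Fev and 8 of 14 with neither. Pax4 was rare with a hormone, in 3 of 18, against 18 of 29 with Fev and 8 of 14 with neither. Pax6 varied little, in 15 of 18, 24 of 29 and 10 of 14. All these comparisons rest on 14 to 29 cells, their intervals are wide, and the E17.5 plates supply 15 of the 18 hormone cells.

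Low cells of E17.5 and E15.5 were compared by the mean over plates of log2(CPM + 5), with 2 and 3 plates. The sample names of EA06 and EA07 carry an added ending that those of EA01 to EA03 lack. Any library batch behind it goes with day and genotype in this comparison and cannot be told apart from them. Ghrl and Sst were among the genes higher at E17.5, and so were 8 of 25 granule genes, with the other 17 not called. Over all 8095 measured genes 1385 were called higher (17.1%) and 242 lower (2.99%), where a call needed the plates of the days not to overlap, and the median of all was 0.57. With any 1 plate left out the shares were 21.3% to 32.8% and 4.47% to 9.32%. The E15.5 plates hold fewer low cells each and more genes at 0, and the part of this in the calls was not tested. Ghrl was at 0 in the low cells of all 3 E15.5 plates and at 8685 and 919 CPM on EA06 and EA07. All 4 measured epsilon genes were called higher, with Mboat4, the enzyme that acylates ghrelin, at a mean of 48.03 CPM on the E15.5 plates and 337 CPM on the E17.5 plates, and Arg1 at 6.37 and 462 CPM. Sst was at 0 on the E15.5 plates and at 2644 and 1704 CPM on EA06 and EA07. Without the hormone cells the differences were 2.20 for Ghrl, 1.25 for Arg1 and 0.64 for Sst, against 9.15, 5.54 and 8.73 with them. With EA03 alone left out they were 9.15, 5.16 and 8.73.

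The granule genes called higher included Pcsk1n (62.5 and 463 CPM, 2.89) and Rab3d (3.08), and of 9 alpha genes 4 were, among them Irx2 (2.91, and 0.51 without hormone cells), a factor of alpha cells. Of 11 measured precursor genes 3 were called higher and none lower, with a list median of 0.58 against 0.57 for all measured genes. Fev itself was not called, at 0.41. Those called were Gch1 (1.46), Syt13 (177 and 912 CPM, 2.99), a synaptotagmin, and Cryba2 (170.2 and 431 CPM, 2.01). Cryba2 was at 0.78 without EA03 and at 1.11 without hormone cells. The others with the largest differences were Hspa1a (4.93), H2-K1 (4.78), Fkbp9 (4.43), Maged2 (4.38), Asph (4.37) and Pnmal2 (4.30). Without hormone cells Maged2 was at -0.26, Asph at 0.96 and Hspa1a at 3.23.

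Pax4 was lower at E17.5, at 707 CPM against 206 CPM (-1.41), but at -0.69 without EA03, and at -0.50 without EA03 and the hormone cells together. Tead2, a factor of the Hippo pathway active in progenitors, was 122.04, 140.04 and 134.3 CPM on the E15.5 plates and 2.36 and 5.20 CPM on the E17.5 plates (-3.98). The plates of the days did not overlap. Tpm4, a tropomyosin, was 244, 237 and 410 CPM and then 0.189 and 59.7 CPM (-3.996), and -2.18 without EA06. Ezh2 was lower as well, at 202 and 40.3 CPM (-2.20). Ttll6, Rims2, Pigm, Ndst1, Prr15l and Cdc14b followed at -3.92 to -3.07. Without EA06, Rims2 was at -2.40, Ndst1 at -2.03, Pigm at -1.92 and Prr15l at -0.95.

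Cell cycle, Notch, duct and stress genes are read here against the 2.28% of all genes called higher and 5.48% called lower than in high cells. The shares against negative cells were 0.948% and 4.9%. Against high cells, 2 of 13 S phase genes (Mcm5 and Rrm1) were called lower and none higher, with a median of -1.002, and none of 10 was called against negative cells. No low cell had 3 of the 16 genes of the G2 and M phases at 20 CPM, against 4 high and 4 negative cells, and 0 of 61 allows a share of up to 5.87%. Of 9 measured genes of cell cycle exit and cyclins D, 1 was called higher than in high cells and 2 lower (Gadd45a and Ccnd2), with a median of -1.46. The 1 called higher was Cdkn2d, an inhibitor of cyclin D kinases (2.10). Of 10 Notch genes 2 were called lower (Hes6 and Mfng) and none higher, and none of 8 was called against negative cells.

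Of 13 duct and bipotent progenitor genes, 1 was called lower than in high cells, the keratin Krt19 (12.4 and 55.2 CPM, -2.36), and none was called against negative cells. Sox9 was at 69.7 CPM in low, 86.7 CPM in high and 57.8 CPM in negative cells, and it reached 20 CPM in 29 of 61 low cells, of which 15 had Fev as well. Of 19 epithelial adhesion and cytoskeleton genes, 3 were called lower than in high cells: the claudin Cldn6 (-1.07, and -0.92 without EA01 or -0.79 without EA07), the thymosin Tmsb4x (-1.62) and Stmn1 (-1.39). Of 14 genes of the unfolded protein response, which widens the folding capacity of the endoplasmic reticulum, 4 were called higher and none lower (Canx, Pdia4, Dnajc3 and Xbp1), with a median of 0.50, and against negative cells Pdia6 was called lower. Dnajc3 was below 2-fold without EA01 (0.95) or EA03 (0.77), and Pdia4 without EA06 (0.95). Of 12 immediate early genes, which respond to handling of tissue, none was called in either comparison, with medians of 0.30 and 0.12.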

How the data were processed

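RNA of single mouse embryonic pancreas cells was read with Smart-seq2. The deposited table holds raw read counts per gene and cell for 23002 genes, which the authors made, per the submitters' processing notes naming FastQC, STAR, HTSeq and mm10. The notes state no versions. The table has no molecular identifiers, and no pair of cell columns was identical.

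CPM was the count over the column sum times 1000000. Counts were summed per class and plate, a pseudocount of 5 CPM was added, and log2 ratios were averaged over plates with at least 5 cells in both classes. The scripts were tested on simulated data. The genes named by size were up to 12 in each direction per comparison, up to 12 higher than both classes and 8 each way by day. They had every plate on one side, or the days not overlapping, 50 CPM in the higher group and 10 CPM or more in at least 25% of its cells. Of each list, up to 4 measured members with the largest absolute ratio were taken, called or not. The focus markers, Sox9, Pdx1, Nkx6-1, Ins1, Ins2, Gcg, Sst, Ghrl and Ppy were always taken. Further members are named where a list is described. The members, gene lists and marker lists were chosen with earlier results of these data known. Alternatives used TMM factors (edgeR 4.0.16) and size factors (DESeq2 1.42.0), run in R 4.3.3, beside Python 3.11.15 with numpy 2.4.6, pandas 2.3.3, scipy 1.17.1 and matplotlib 3.10.9. No test was run, because the labels name no animal. Doublets were not called and cells were used as deposited. The cells of plate EA04 entered only the check of Neurog3.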

Additional observations from a re-analysis of the deposited data

Results flagged for a closer look

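Among 28 pairs of a gene and a comparison looked at for a plate far from the others, 1 stood apart, where chance flags about 1 in 20. Gcg in low over high cells had a log2 ratio of 11.09 on EA02, whose gap to the nearest plate was 0.792 of the range over the 5 plates, above the limit of 0.71. That plate holds the 1 low cell with Gcg.

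For 6 genes every E15.5 plate lay on one side of 0 and every E17.5 plate on the other, and these differences between days were not tested. In low over high cells, Runx1t1 averaged 0.69 on the E15.5 plates and -0.45 on the E17.5 plates, a difference of 1.15. Cdc20, an activator of the mitotic ubiquitin ligase, averaged -2.46 and 2.69, a difference of -5.15. Its levels in low cells were small, at 14.8, 0 and 0 CPM on EA01 to EA03 and 45.4 and 15.8 CPM on EA06 and EA07. Only 6.56% of low cells had Cdc20 at 10 CPM or more. In low over negative cells, Syt13 averaged -1.90 and 0.22 (difference -2.12), and Cryba2 -1.75 and 0.62 (difference -2.37). Ghrl averaged -6.80 and 1.77 (difference -8.57). Tead2 averaged 3.43 and -1.53 (difference 4.95).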

How the results depend on the processing

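With fewer plates fewer have to share a side, so the shares of measured genes that were called are not comparable between settings with different plates. They are given in the order higher and lower than high cells (2.28% and 5.48%), higher and lower than negative cells (0.948% and 4.9%) and higher than both (0.219%). Low cells from 20 to below 500 CPM, which also leaves 3 plates, gave 8.07%, 10.9%, 3.803%, 10.2% and 1.38%. Plates EA01 to EA03 alone gave 5.91%, 16.0043%, 4.08%, 16.7% and 1.78%, and plates EA06 and EA07 alone gave 16.1%, 11.98%, 9.03%, 11.3% and 4.03%. With each plate left out the ranges were 3.35% to 5.17%, 6.61% to 9.64%, 1.76% to 2.11%, 5.69% to 9.01% and 0.4996% to 0.642%. A pseudocount of 20 CPM gave 3.2% lower than high cells, 0.41% and 2.29% against negative cells and 0.0685% higher than both. One pooled sum per class gave 3.34% lower than high cells and 0.527% and 2.45% against negative cells. With TMM factors 0.138% were higher than both, 10 genes that were all among the 16. Of the 16, 6 were shared with the calls of low cells from 20 to below 500 CPM, 7 with those of EA06 and EA07, 5 with a pseudocount of 20 CPM and 6 without hormone cells. Without hormone cells and with them plate EA03, an alternative chosen after seeing the data, 4.18% were higher than high cells, 2.77% higher than negative cells and 0.717% higher than both, where leaving out EA03 alone gave 5.17%, 2.11% and 0.4996%. Of the 74 genes called higher than negative cells 28 were called there too, and of the 382 called lower 31.2%. By day (17.1% higher and 2.99% lower at E17.5), each plate left out gave 21.3% to 32.8% and 4.47% to 9.32%, plates with at least 1 low cell gave 1.06% lower, and leaving out hormone cells gave 8.84% lower.

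Leaving out hormone cells and EA03 also changed the sign of called values, for Resp18 (0.30) and Ppp1r1a (0.33) against negative cells, and for Maged2 (-0.26), Rbp4 (-0.074) and Cdkn1c (-0.060) by day. The cause was not tested. With each plate left out 40 to 59 low cells remained, and with a hormone called from 100 CPM 42.6% of low cells had one. Of the single genes' values under all alternatives, 4858 moved by no more than the spread between plates, 94 moved by more and these 5 called values changed sign. Leaving 1 plate out of the mean ratio between classes cannot move it by as much as that spread. The first of these numbers was thus partly fixed in advance and is no measure of stability. A further 21 values over 2-fold that were not called also changed sign when a plate or the hormone cells were left out, such as Gcg (-0.69 without EA02) and Sst (-0.75 without EA06) against high cells and Ghrl (0.20 without hormone cells) against negative cells. No paired analysis was possible because replicate numbers only name cells and pair none of them. The ratios themselves are taken within plates.

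The 5 to 21 low cells of a plate limit each ratio, and 0 of 61 cells allows a share of up to 5.87%. The classes differ in Neurog3 by the choice of the cells. Day, genotype and plate code cannot be told apart, nor can any library batch in the comparison by day.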
